A study of Mus musculus with 10 samples.

Results

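The 10 genes described here are the Wnt ligands Wnt4, Wnt5a, Wnt6, Wnt7b, Wnt10a and Wnt10b, the transcription factor Lef1, the target and feedback gene Axin2, the secreted inhibitor Dkk1 and the receptor Lrp4. They were chosen by name from the symbols of the GENCODE mouse annotation, with earlier results of these data known. All 10 were found among the 18381 genes of the count table. RNA was sequenced from first lower molars of wild type C57BL/6JOlaHsd embryos at embryonic day 14 (E14), a stage at which the crown begins to form. The molars were cultured in hanging drops for 6 h, with mouse recombinant insulin-like growth factor 1 (IGF1) at 750 ng/ml or with an equal volume of the vehicle, phosphate-buffered saline with bovine serum albumin (control). From each of the 5 embryos, numbered 1, 2, 3, 4 and 6, a molar was treated and its partner served as the control, with left and right sides balanced, so that 5 IGF1 and 5 control teeth were compared within embryos. No untreated tooth that had not been cultured was part of the comparison, and RNA came from whole teeth, so fewer cells of a type and less RNA per cell cannot be told apart.

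Wnt ligands are secreted, lipid-modified proteins that bind Frizzled receptors and, in the canonical branch, the co-receptors Lrp5 and Lrp6. Binding keeps β-catenin from being degraded, and β-catenin then enters the nucleus and activates genes together with Lef1 and the related Tcf factors. In the tooth germ the pathway is active in both epithelium and mesenchyme, and teeth do not develop past the bud when Lef1 is missing. Wnt4, Wnt6, Wnt10a and Wnt10b are known mainly as ligands of the dental epithelium, Wnt7b as a ligand of the oral epithelium outside the tooth, and Wnt5a as a mesenchymal ligand that acts largely without β-catenin.

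Lef1 and Axin2 were the members lower with IGF1 past the test, and no member was higher past it. Lef1 fell by 31.1% and Axin2 fell by 17%, and each was lower in the IGF1 tooth of all 5 embryos. Lef1 was called under all 13 alternative settings and Axin2 under 4 of 13, DESeq2's Wald test not among them. None of the 6 ligands was called by edgeR's quasi-likelihood test, DESeq2's Wald test or limma-voom, although 3 of them (Wnt4, Wnt5a and Wnt6) had an unadjusted edgeR p under 0.05, as did 26.5% of all genes tested. In the edgeR fit, which takes embryo as a block and adjusts p-values over all 14504 genes tested, 2 of 10 members were called lower at an adjusted p under 0.05, while 4.76% of all genes tested were called lower, 6.72% higher and 11.5% in either direction. Without the block, 1 member was called and 6.12% of all genes. Because the members were chosen with earlier results known, their share is a description. The median log2 fold change (IGF1 over control) was -0.27 over the 10 members and -0.00 over all genes tested.

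**Figure D1:**
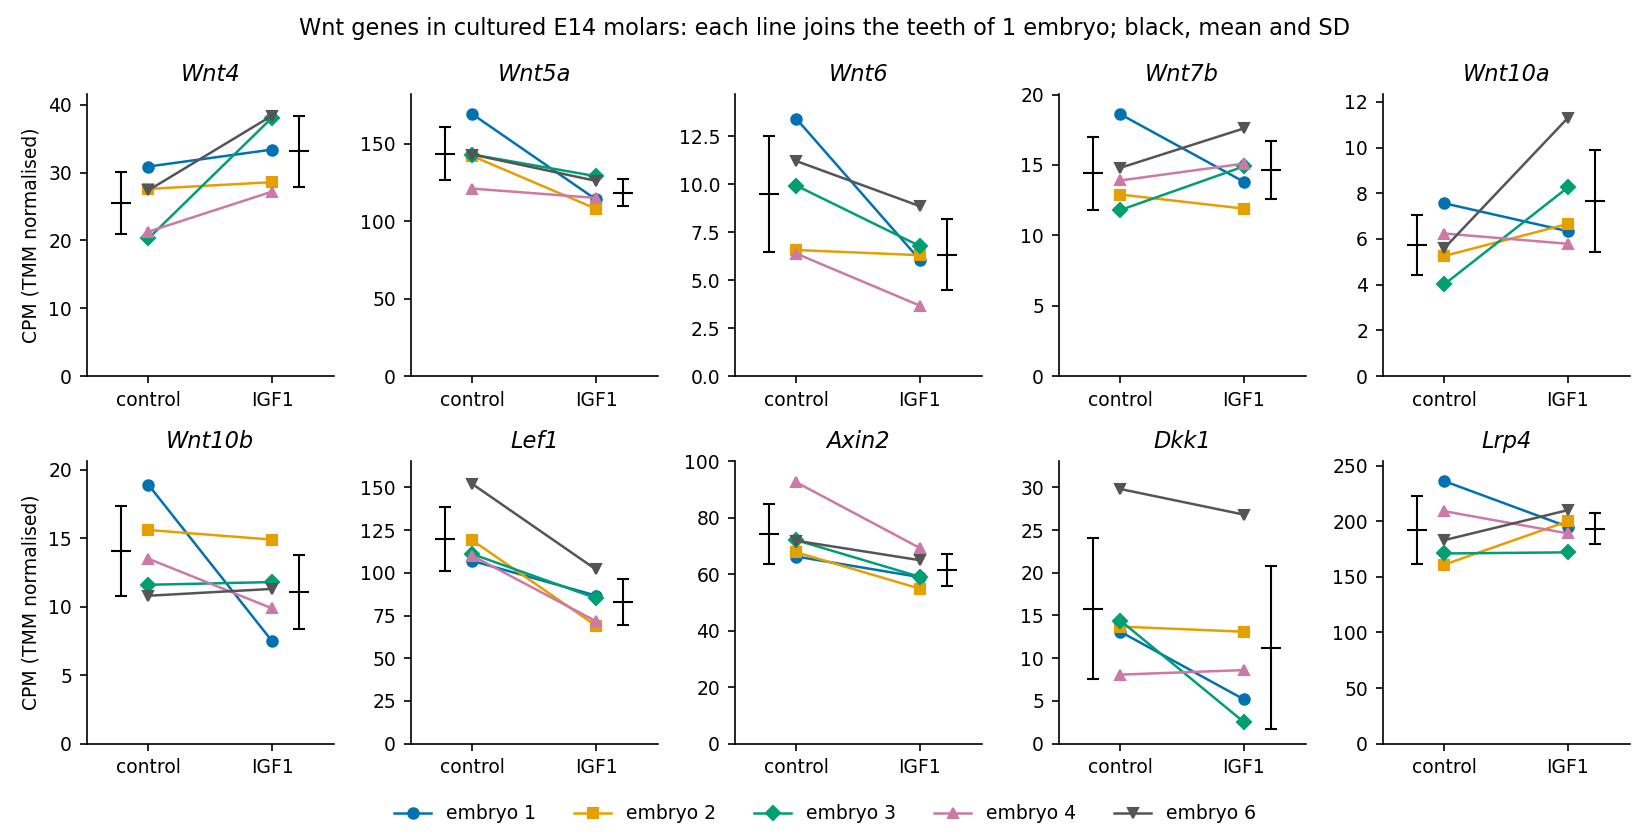
Normalised read counts of the 10 Wnt genes, as counts scaled to the library size (CPM), in the control and the IGF1 tooth of each embryo. Each line joins the teeth of 1 embryo, and the black marks give the mean and SD of 5 teeth. All 5 lines run downward for Lef1 (120 to 83 CPM on average) and for Axin2 (74.1 to 61.5 CPM), while those of Lrp4, Wnt7b and Wnt10b cross.

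Total counts per tooth ran from 2845773 to 8403151 in the control and from 3456634 to 8763113 in the IGF1 molars, with the lowest total of each group in embryo 1. Dental genes were detected as the label states. Krt14 of epithelium averaged 433 CPM in the control teeth, and Msx1 and Pax9 of dental mesenchyme 264 and 259 CPM. Summed CPM of 23 epithelial markers ran from 3528 to 4874 in the control and from 3891 to 5162 in the IGF1 teeth. Of 18 mesenchymal markers, 4 were called lower (Vim, Pdgfra, Pdgfrb and Zeb2) and their summed CPM ran from 11268 to 13281 and from 10305 to 12915. Erythroid markers were called lower in 5 of 6 cases (604 to 1109 CPM in the IGF1 and 849 to 1422 CPM in the control teeth, summed over the 7 in the table), endothelial markers in 2 of 10 and macrophage markers in 1 of 8. Of 17 tested genes of the response to low oxygen, 15 were called higher, and the summed CPM of all 18 in the table ran from 1083 to 1655 in the control and from 2099 to 7138 in the IGF1 teeth. The median difference of these genes was 2.80 in embryo 2 and 2.47 in embryo 3, and 0.62 to 1.14 on the log2 scale in the other embryos. The members called are given below also without embryos 2 and 3. No marker of these lists was at 0 in all teeth.

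Promoter sequences are shown for Lef1 and Axin2, the members past the test, and for Dkk1, which varied most between embryos, because Lef1 and the Tcf factors bind a short motif at many Wnt target genes. Each is the stretch of 250 bases before a RefSeq transcript start (GRCm38.p6), read 5′ to 3′ on the strand of the gene, in lower case. The letters CTTTGAA were searched on both strands, as were the variants CTTTGAT and also CTTTGTA together with the variant CTTTGTT. Capitals mark each match. The first Lef1 sequence lies at chr3:131110047-131110296 on the plus strand and the second, before an internal start of the gene, at chr3:131156044-131156293. The Axin2 sequence lies at chr11:108920099-108920348 on the plus strand and the Dkk1 sequence at chr19:30549497-30549746 on the minus strand.
Lef1 first start: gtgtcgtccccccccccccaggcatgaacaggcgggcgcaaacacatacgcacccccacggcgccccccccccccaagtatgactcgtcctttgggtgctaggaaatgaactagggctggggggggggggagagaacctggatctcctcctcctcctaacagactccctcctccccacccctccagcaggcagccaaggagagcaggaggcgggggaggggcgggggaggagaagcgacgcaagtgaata
Lef1 internal start: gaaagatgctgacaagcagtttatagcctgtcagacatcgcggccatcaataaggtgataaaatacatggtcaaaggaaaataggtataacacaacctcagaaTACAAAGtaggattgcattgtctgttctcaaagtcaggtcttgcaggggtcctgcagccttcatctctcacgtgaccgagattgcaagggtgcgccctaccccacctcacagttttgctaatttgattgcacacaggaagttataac
Axin2: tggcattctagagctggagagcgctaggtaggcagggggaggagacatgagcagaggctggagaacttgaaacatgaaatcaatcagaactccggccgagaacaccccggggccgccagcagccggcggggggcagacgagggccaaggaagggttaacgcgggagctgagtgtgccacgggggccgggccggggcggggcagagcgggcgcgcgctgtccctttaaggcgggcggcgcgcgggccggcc
Dkk1: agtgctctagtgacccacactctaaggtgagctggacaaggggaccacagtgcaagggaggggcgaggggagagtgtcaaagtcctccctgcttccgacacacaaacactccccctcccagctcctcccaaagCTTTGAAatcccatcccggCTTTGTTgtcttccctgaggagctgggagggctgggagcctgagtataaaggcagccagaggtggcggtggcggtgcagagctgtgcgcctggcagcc

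Dkk1 held CTTTGAA 117 bases and CTTTGTT 98 bases before the start, both on the strand of the gene. The RefSeq start used for Dkk1 lies downstream of the GENCODE gene start, so both matches lie inside the GENCODE gene (chr19:30545863-30549665). The internal start of Lef1 held CTTTGTA on the opposite strand, printed as its complement, 147 bases before the start. These letters were not found before the other Lef1 starts or before Axin2, Wnt4, Wnt6 and Wnt10b. Wnt5a, Wnt7b, Wnt10a and Lrp4 were not matched in the promoter table used here. Of all 32851 mouse promoters of this length, 14.8% held at least 1 match, and 2 of the 9 promoters of these genes did. The Axin2 stretch was rich in G and C (69.2%) with 24 CpG dinucleotides, against 66.4% and 11 for the first start of Lef1 and 60.8% and 6 for Dkk1.

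Wnt5a (ENSMUSG00000021994, chr14:28504750-28527448 in GRCm38) had 169, 142, 143, 121 and 143 CPM in the control teeth of embryos 1, 2, 3, 4 and 6. In the IGF1 teeth of the same embryos it had 114, 108, 129, 115 and 126 CPM. Each IGF1 tooth was below the control tooth of its embryo, by 0.57 on the log2 scale in embryo 1 and by only 0.08 in embryo 4, yet the groups overlapped because the control tooth of embryo 4 lay below the IGF1 teeth of embryos 3 and 6. The log2 fold change was -0.27 ± 0.08 (SE, n = 5 embryos; 95% interval -0.45 to -0.09) with an edgeR adjusted p of 0.0578, which did not pass the threshold.

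Wnt6 and Wnt10a are neighbours on chromosome 1, with 6193 bases between the end of Wnt6 (chr1:74771892-74785322, ENSMUSG00000033227) and the start of Wnt10a (chr1:74791516-74804179, ENSMUSG00000026167). Wnt6 was measured at 13.4, 6.57, 9.92, 6.38 and 11.2 CPM in the control teeth of embryos 1, 2, 3, 4 and 6, and at 6.05, 6.3, 6.77, 3.67 and 8.85 CPM in their IGF1 teeth. It was lower in the IGF1 tooth of each embryo, least in embryo 2, and the groups overlapped (log2 -0.54 ± 0.19, 95% interval -0.96 to -0.13, edgeR adjusted p = 0.0903). Wnt10a was measured at 7.56, 5.26, 4.02, 6.24 and 5.6 CPM in the control teeth and at 6.34, 6.66, 8.26, 5.79 and 11.3 CPM in the IGF1 teeth. The IGF1 tooth was the higher in embryos 2, 3 and 6 and the lower in embryos 1 and 4 (log2 0.45 ± 0.23, 95% interval -0.06 to 0.96, edgeR adjusted p = 0.253), and the value was 0.29 without embryo 3 and likewise without embryo 6. Neither of these adjacent genes passed the test, and the difference between the genes was not tested.

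Wnt4 (ENSMUSG00000036856, chr4:137277489-137299726) was the ligand whose IGF1 tooth was the higher in every embryo. It had 30.9, 27.6, 20.3, 21.3 and 27.4 CPM in the control teeth of embryos 1, 2, 3, 4 and 6, and 33.4, 28.6, 38.1, 27.2 and 38.4 CPM in the IGF1 teeth. The differences were uneven, from 0.05 on the log2 scale in embryo 2 to 0.90 in embryo 3, and the groups overlapped. The log2 fold change of 0.40 ± 0.13 (95% interval 0.12 to 0.68) had an edgeR adjusted p of 0.0697 and was not called. Without embryo 3 it was 0.26 (edgeR adjusted p = 0.172).

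Wnt7b (ENSMUSG00000022382, chr15:85535437-85582473) had 18.6, 12.9, 11.8, 13.9 and 14.8 CPM in the control teeth and 13.8, 11.9, 14.9, 15.1 and 17.6 CPM in the IGF1 teeth of embryos 1, 2, 3, 4 and 6. The groups covered nearly the same range, and the log2 fold change was 0.06 ± 0.14 (95% interval -0.25 to 0.36, edgeR adjusted p = 0.842). Wnt10b (ENSMUSG00000022996, chr15:98770712-98778150) had 18.9, 15.6, 11.6, 13.5 and 10.8 CPM in the control teeth and 7.49, 14.9, 11.8, 9.88 and 11.3 CPM in the IGF1 teeth. The teeth of embryo 1, which have the fewest reads, differed by 1.30 on the log2 scale with the IGF1 tooth the lower, and those of the other embryos by at most 0.44 (log2 fold change -0.29 ± 0.19, 95% interval -0.70 to 0.13, edgeR adjusted p = 0.371). Without embryo 1 it was -0.10 ± 0.15 (edgeR adjusted p = 0.736). Wnt4, Wnt5a and Wnt6 each had 1 direction in 5 of 5 embryos, while Wnt7b, Wnt10a and Wnt10b were split 3 to 2. Of all genes tested, 24.2% had the same direction in all 5 embryos.

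Lef1 (ENSMUSG00000027985, chr3:131110471-131224356), which carries β-catenin to DNA, had 107, 119, 111, 110 and 152 CPM in the control teeth of embryos 1, 2, 3, 4 and 6. Its values in the IGF1 teeth were 86.7, 69.1, 85.2, 71.7 and 102 CPM. Every IGF1 tooth was below every control tooth, the highest IGF1 tooth being that of embryo 6, whose control tooth was also the highest. Of all genes tested, 3.03% were lower in this way without overlap, and 7.25% did not overlap in either direction. The log2 fold change was -0.54 ± 0.08 (SE, n = 5 embryos; 95% interval -0.72 to -0.36) with an edgeR adjusted p of 0.00219. Over the 13 alternatives, its log2 fold changes ran from -0.59 to -0.48 and its adjusted p from 5.77e-06 to 0.0222. Without embryos 2 and 3, in which the oxygen response genes differed most, it was -0.52 with an edgeR adjusted p of 0.00389.

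Axin2 (ENSMUSG00000000142, chr11:108920349-108950783) encodes a scaffold of the complex that degrades β-catenin and is itself switched on by Wnt signalling, so that it is read as a gauge of the pathway. It had 66.3, 67.8, 72.1, 92.6 and 71.9 CPM in the control teeth of embryos 1, 2, 3, 4 and 6, and 59, 54.9, 59.1, 69.3 and 65 CPM in the IGF1 teeth. Each IGF1 tooth was below its own control tooth, by 0.15 to 0.42 on the log2 scale, but the IGF1 tooth of embryo 4 lay above the control teeth of embryos 1 and 2. The log2 fold change was -0.27 ± 0.07 (95% interval -0.43 to -0.11) with an edgeR adjusted p of 0.0378. The call was close to the threshold and was lost when any embryo was left out (adjusted p 0.0634 to 0.145), without the replicate block (0.164), without the filter on low counts (0.0522), with DESeq2's Wald test (0.0877), and without embryos 2 and 3 (-0.26, adjusted p 0.125).

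**Figure D2:**
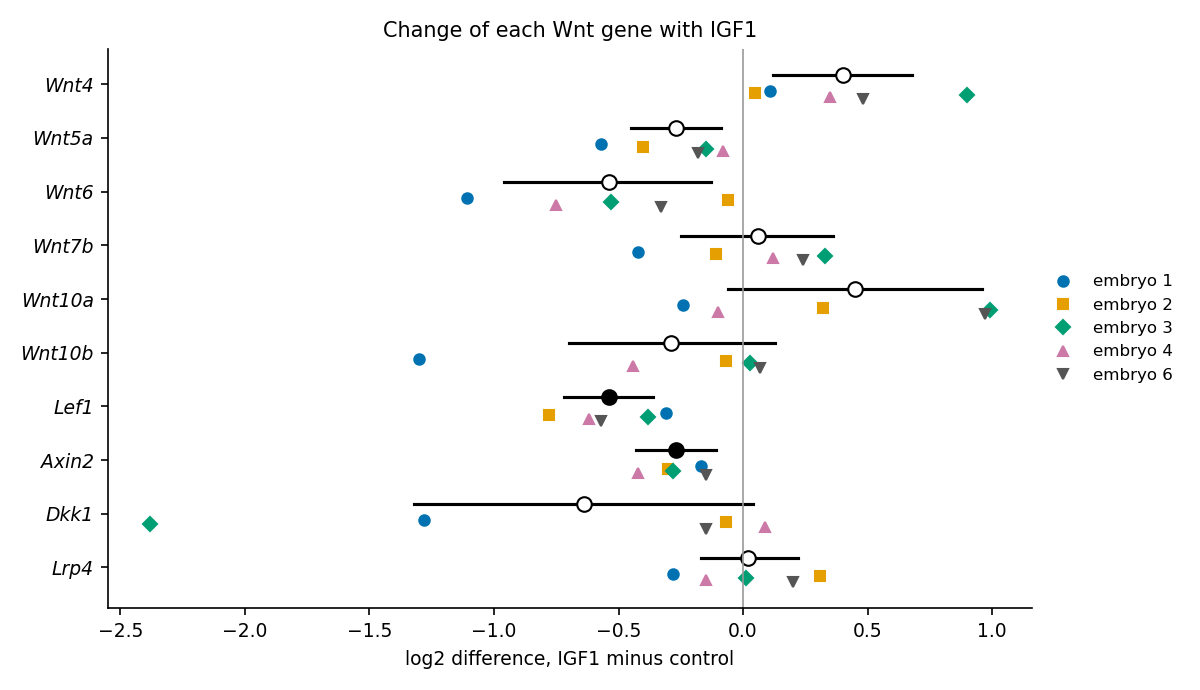
Difference of each Wnt gene between the IGF1 and the control tooth on the log2 scale. Large circles give the edgeR log2 fold change with its 95% interval (filled where the adjusted p is under 0.05), and small symbols give the difference in each embryo. The intervals of Lef1 (-0.72 to -0.36) and Axin2 (-0.43 to -0.11) are narrow, and Dkk1 spans the widest range of embryos, from -2.38 to 0.09.

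Dkk1 (ENSMUSG00000024868, chr19:30545863-30549665), which blocks the co-receptors Lrp5 and Lrp6, had 13.1, 13.7, 14.4, 8.08 and 29.8 CPM in the control teeth of embryos 1, 2, 3, 4 and 6. In the IGF1 teeth it had 5.18, 13.1, 2.52, 8.61 and 26.8 CPM. The IGF1 tooth was far below the control tooth in embryos 1 and 3, with log2 differences of -1.28 and -2.38, and near it in embryos 2, 4 and 6, with differences of -0.07, 0.09 and -0.15. The differences spread over 2.47 on the log2 scale, against 0.48 for Lef1, and the fold change of -0.64 ± 0.31 (95% interval -1.32 to 0.04, edgeR adjusted p = 0.22) was not called. Without embryo 3 it was -0.25 ± 0.20 (edgeR adjusted p = 0.471). Dkk1 had as few as 18 counts in a tooth.

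Lrp4 (ENSMUSG00000027253, chr2:91457511-91513779), a receptor that binds the Wnt inhibitor Sostdc1, had 236, 161, 171, 209 and 183 CPM in the control teeth and 195, 200, 172, 189 and 210 CPM in the IGF1 teeth of embryos 1, 2, 3, 4 and 6. It was the higher in some embryos and the lower in others, and the IGF1 teeth lay within the range of the control teeth. Its log2 fold change was 0.02 ± 0.09, and its 95% interval of -0.17 to 0.22 does not reach the change of Lef1 (edgeR adjusted p = 0.91).

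To compare levels between genes, CPM were divided by the length of the union of exons in kb. This union covers all annotated transcripts, 8 for Lef1 and 1 for Wnt4. Lengths of the transcripts present in the teeth were not used, so the order and shares below depend on this choice. Wnt5a (18.4 ± 2.16 CPM per kb, SD, n = 5) and Lrp4 (18.3 ± 2.92) were highest in the control teeth, followed by Lef1 (13.6 ± 2.1) and Axin2 (13.5 ± 1.93). Dkk1 (6.52 ± 3.39) and Wnt4 (6.08 ± 1.08) were intermediate. Wnt6 (4.33 ± 1.38), Wnt10b (4.14 ± 0.967), Wnt7b (2.94 ± 0.528) and Wnt10a (2.32 ± 0.527) were lowest. The ranges of every pair of neighbours in this order overlapped over the 5 teeth. Within embryos, Lrp4 lay above Lef1, Axin2 above Dkk1, Wnt4 above Wnt6, Wnt10b above Wnt7b and Wnt7b above Wnt10a in all 5 control teeth, while the other neighbours changed places between teeth. Summed over the 6 ligands, the level was 47.5, 37.1, 35.1, 32.8 and 38.4 CPM per kb in the control teeth and 32.9, 32.9, 38.5, 31.2 and 40.8 in the IGF1 teeth of embryos 1, 2, 3, 4 and 6. The sum was lower in 3 embryos and higher in the other 2, and Wnt5a alone made up 45.5% to 52% of it in the control and 39.5% to 47.1% in the IGF1 teeth.

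**Figure D3:**
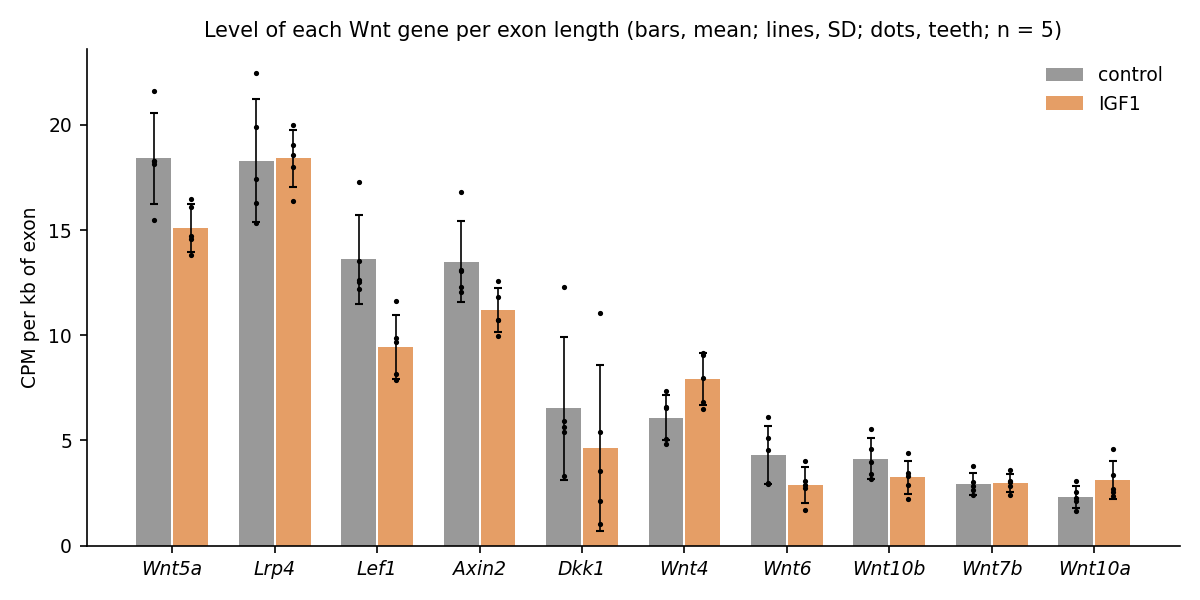
Level of the 10 Wnt genes in CPM per kb of the union of all annotated exons, ordered by their mean in the control teeth. Bars give means, lines the SD and dots the 5 teeth of each group. Wnt5a and Lrp4 stand highest at 18.4 and 18.3 in the control teeth, and Lef1 falls from 13.6 to 9.44.

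Counts are estimates made from transcripts, so reads that fit several genes can be split between them. None of the 6 ligands shared a stretch of 31 bases with another Wnt gene. Antisense genes overlap Wnt5a, Wnt6, Wnt7b, Lef1 and Axin2, none of them is listed in the count table, and no strand setting is given in the sources used here. Lef1 shared 14.7% of its stretches of 31 bases with other genes, of which most (1179 of 8820 in all) were shared with the antisense gene Gm43352. The shares were 6.62% for Wnt4, 4.82% for Wnt7b, 4.18% for Wnt5a, 2.71% for Axin2, 2.43% for Dkk1 and 0.635% for Lrp4, and Wnt6, Wnt10a and Wnt10b shared none. In Wnt7b, Wnt5a and Axin2 most of it was shared with the overlapping antisense gene. These are shares of annotated sequence, and how many reads of these genes were split in this way is not known.

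Other genes of the pathway were counted by role. The lists were chosen with earlier results of these data known, so their shares are descriptions and do not test the pathway. Of 104 listed, 100 were in the table and 96 were tested, of which 2 were called higher and 15 lower, or 17.7% in all. Of all genes tested, 6.72% were called higher, 4.76% lower and 11.5% in either direction. Their median log2 fold change was -0.10. DESeq2's Wald test called 13 of them, none higher, limma-voom 18, and 7 were called without the replicate block, all of them lower, beside 6.12% of all genes. Among the 8 other ligands tested, the 2 genes of ligand secretion (Wls and Porcn) and the 15 genes of cytoplasmic transduction, edgeR called none, and neither did DESeq2's Wald test or limma-voom. At an unadjusted p under 0.05 these lists held 2, 1 and 1 genes, beside 26.5% of all genes tested. Ctnnb1, which encodes β-catenin, averaged 1298 CPM in the control and 1346 CPM in the IGF1 teeth (log2 0.05, edgeR adjusted p = 0.684).

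The list of secreted inhibitors also held the membrane proteins Kremen1, Kremen2 and Apcdd1. Among its 14 genes tested, 4 were called lower and none higher, beside a list median of -0.27. DESeq2's Wald test and limma-voom each called 5, adding Apcdd1 (log2 -0.41, DESeq2 adjusted p 0.0474, edgeR adjusted p 0.0797) and Dkk4 respectively. Notum, an enzyme that removes the lipid from Wnt proteins, had 8.59, 5.41, 7.8, 7.09 and 9.84 CPM in the control teeth of embryos 1, 2, 3, 4 and 6, and 2.59, 1.31, 2.64, 1.83 and 6.28 CPM in the IGF1 teeth. Only the IGF1 tooth of embryo 6 lay within the range of the control teeth (log2 -1.50 ± 0.25, edgeR adjusted p = 0.00371). Sostdc1, the inhibitor that binds Lrp4, had 201, 185, 173, 174 and 273 CPM in the control and 120, 99.8, 166, 116 and 170 CPM in the IGF1 teeth. Its IGF1 teeth were all below the control teeth although embryo 3 differed little (log2 -0.59 ± 0.11, edgeR adjusted p = 0.00518, and 0.053 without the replicate block). Dkk3, a relative of Dkk1, fell from 99.6 to 70 CPM on average (edgeR adjusted p = 0.00886) and Sfrp4, a secreted Frizzled-related protein, from 27.7 to 19.6 CPM (0.0379). Sfrp4 had an adjusted p of 0.419 without the block and was called in 2 of 5 fits with an embryo left out. Kremen1, a receptor of Dkk1, was not called (log2 -0.13, edgeR adjusted p = 0.397, and -0.05 without embryo 4).

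At the cell surface, 2 of 15 receptors and co-receptors were called lower and none higher. The Frizzled receptor Fzd1 had 153, 128, 136, 169 and 210 CPM in the control teeth and 124, 89.3, 112, 106 and 157 CPM in the IGF1 teeth of embryos 1, 2, 3, 4 and 6. The groups overlapped but each embryo was lower with IGF1 (log2 -0.44 ± 0.07, edgeR adjusted p = 0.00384, and 0.13 without the replicate block). Fzd7 fell from 111 to 91.3 CPM on average (edgeR adjusted p = 0.0356), a call lost with DESeq2's Wald test (0.0501) and without the block (0.0743) and kept in 1 of 5 fits with an embryo left out (adjusted p up to 0.123). The co-receptors Lrp5 (log2 0.07, adjusted p = 0.74) and Lrp6 (-0.12, adjusted p = 0.28) were not called by edgeR. In the R-spondin module, whose secreted proteins and Lgr receptors strengthen Wnt signals, 2 of 9 were called lower. Rspo4 fell from 6.52 to 3.09 CPM (edgeR adjusted p = 0.029) and Lgr6 from 64.8 to 53.5 CPM (0.043). Both calls were lost without the replicate block (0.0545 and 0.115) and held in 1 of 5 fits with an embryo left out, and that of Lgr6 was also lost with DESeq2's Wald test (0.106) and without the filter on low counts (0.0608).

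Among 12 nuclear factors, 2 were called lower and 2 higher. Tle1, a co-repressor that binds Lef1 and Tcf factors, fell from 192 to 147 CPM (log2 -0.40 ± 0.08, edgeR adjusted p = 0.0069), and Tcf7l2, a partner of β-catenin like Lef1, fell from 75.4 to 58.7 CPM (-0.37 ± 0.09, adjusted p = 0.0211). Ctnnbip1, an inhibitor that keeps β-catenin from Tcf factors, rose from 20.9 to 28.3 CPM (0.44 ± 0.11, edgeR adjusted p = 0.0268), and Pygo2, a co-activator, rose from 48.7 to 59.6 CPM (0.30 ± 0.08, adjusted p = 0.0327). The other members of the Lef1 family, Tcf7 (log2 -0.36, edgeR adjusted p = 0.142, and -0.19 without embryo 3) and Tcf7l1 (-0.25, adjusted p = 0.0845), were not called. The list median was -0.23. Both higher calls were lost with DESeq2's Wald test (adjusted p 0.0602 for Ctnnbip1 and 0.0874 for Pygo2) and without the replicate block (0.0578 and 0.179), and with an embryo left out they held in 2 and 1 of 5 fits. The call of Tcf7l2 was lost without the block (0.0809) and held in 2 of 5 such fits, while that of Tle1 held in all.

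Of 10 other feedback and target genes, Myc and Bambi were called lower and none higher, beside a list median of -0.28. Myc, a growth-promoting transcription factor, had 35, 39.3, 45.9, 55.6 and 45.4 CPM in the control teeth of embryos 1, 2, 3, 4 and 6, and 28.5, 27.5, 26.4, 35 and 34.3 CPM in the IGF1 teeth. Its groups met only at 35 CPM, in the control tooth of embryo 1 and the IGF1 tooth of embryo 4 (log2 -0.55 ± 0.09, edgeR adjusted p = 0.00389). Bambi, a decoy receptor of BMP signals, fell from 33 to 24.3 CPM (-0.44 ± 0.11, edgeR adjusted p = 0.0238), and was called in 2 of 5 fits with an embryo left out. The feedback gene Nkd1 (log2 -0.31, edgeR adjusted p = 0.068) and the target Sp5 (-0.73, adjusted p = 0.142) were not called. Of 11 genes tested in the list of planar polarity, a branch that works without β-catenin, 3 were called lower. Genes of this list need not act in that branch alone. Prickle2 fell from 70.7 to 51.4 CPM (edgeR adjusted p = 0.00263), Daam2 from 166 to 126 CPM (0.00884) and Fuz from 20.9 to 16.1 CPM (0.0377). The call of Fuz was lost with DESeq2's Wald test (adjusted p 0.157), without the replicate block (0.154) and with any embryo left out (0.0704 to 0.101).

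**Figure D4:**
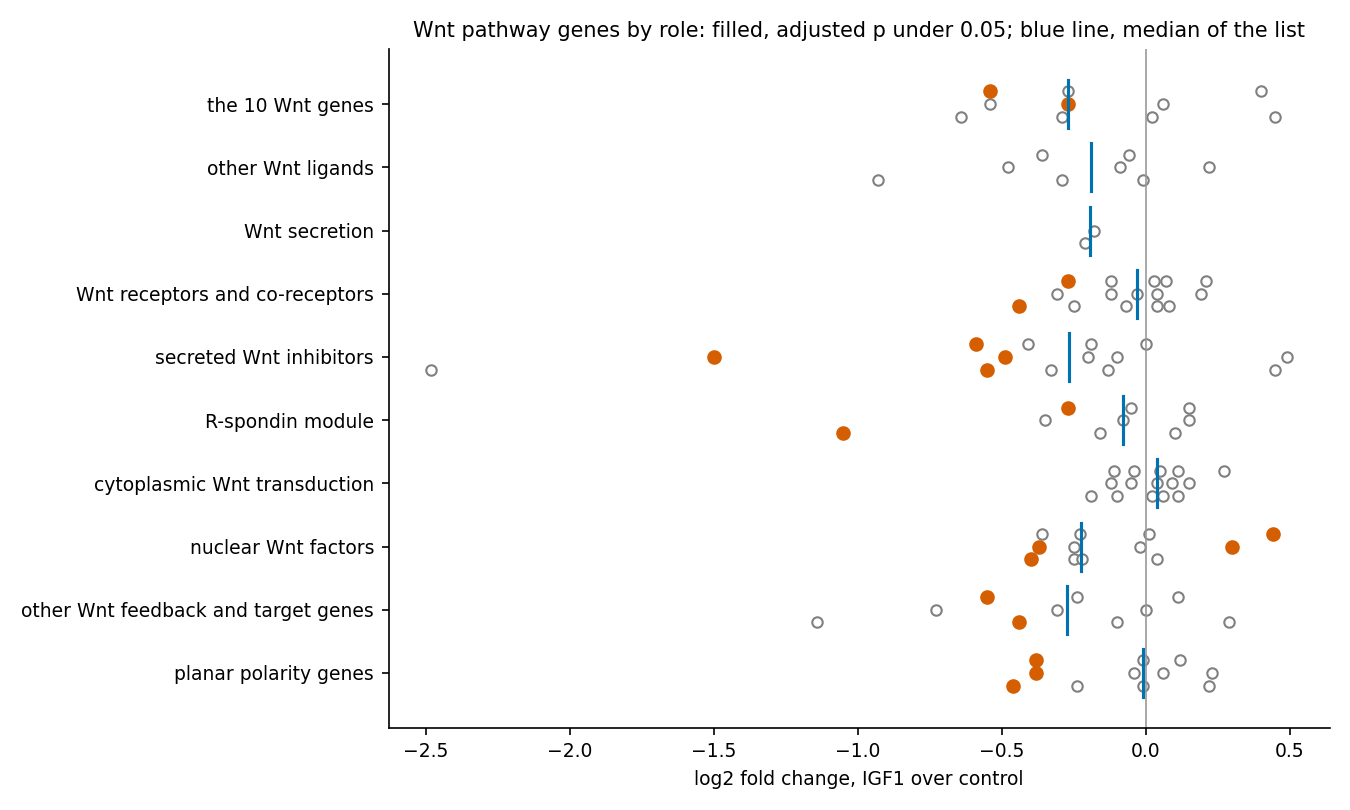
Log2 fold change (IGF1 over control) of the 10 Wnt genes and of 96 other Wnt pathway genes by role. Each circle is a gene, filled where the edgeR adjusted p is under 0.05, and the blue line is the median of the list. Filled circles lie to the left of 0 in every role that holds any, save for Ctnnbip1 (0.44) and Pygo2 (0.30) among the nuclear factors.

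The enamel knot, the signalling centre of the cap stage tooth, is a site of Wnt activity, and genes listed as its markers were counted beside these genes. Some of these, such as Fgf3 and Eda, are not particular to the knot. Of 10, 3 were called lower (Shh, Fgf3 and Bmp2) and 1 higher (Slit1), beside 4.76% and 6.72% of all genes tested. The summed CPM of the 10 ran from 129 to 183 in the control and from 97.5 to 151 in the IGF1 teeth. Shh averaged 35.4 CPM in the control and 14.8 CPM in the IGF1 teeth (log2 -1.31 ± 0.16, edgeR adjusted p = 0.000645). Their part in the values of Lef1 and Axin2 was not tested, nor was that of the mesenchymal markers or the oxygen response genes, which were also higher in the embryos kept in the fit without embryos 2 and 3 (median log2 differences of 0.62, 0.99 and 1.14 in embryos 1, 4 and 6).

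Chromosomal neighbours were examined because Wnt6 and Wnt10a share a neighbourhood. Within 500 kb on either side of the gene starts lay 91 other tested genes, of which 9 were called higher and 7 lower (17.6%, beside 11.5% of all genes tested). Within 250 kb, 7 of 35 were called. Lef1 had 6 tested neighbours. Of these, Sgms2 was lower (log2 -0.53), as Lef1 was, and Ostc (0.57) and Papss1 (0.41) were higher. Around Wnt10b, itself not called, 6 of 21 neighbours were, among them the tubulin genes Tuba1a (0.76) and Tuba1b (0.54).

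The genes whose 5 embryo differences were most like those of Lef1 were Map1lc3b, an autophagy gene, and Slc25a27, a mitochondrial carrier, at mean absolute differences of 0.0805 and 0.10 on the log2 scale over 5 embryos. For Axin2 they were Glis3, a zinc finger transcription factor (0.0361), and Kansl1, a subunit of a histone acetyltransferase complex (0.041). These genes were taken from all genes tested as the nearest by this measure, so their likeness is a description. Map1lc3b fell from 118 to 83.6 CPM and Kansl1 from 246 to 202 CPM, while Glis3 had an edgeR adjusted p of 0.0963.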

How the data were processed

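RNA from single molars was sequenced by the authors after library preparation with the Ovation Mouse RNAseq System. The study's processing notes name FastQC 0.11.8, Trimmomatic 0.39, Salmon 0.99.0, DESeq2 and the GRCm38 build. The authors deposited estimated counts per gene without normalization, as whole numbers, in a table of 18381 genes with at least 10 counts each over all samples. The filter, the transcript set and the strand setting are not given in the sources used here. Symbols came from GENCODE release M21 (18276 genes matched, 105 did not).

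Counts were normalised by TMM, filtered with edgeR's expression filter (14504 genes tested) and tested with edgeR's quasi-likelihood test (edgeR 4.0.16, R 4.3.3) with embryo as a block and Benjamini-Hochberg adjustment, called at an adjusted p under 0.05. The block was used because both teeth of a pair came from 1 embryo. Correlations of the deviations of both teeth of an embryo from their group means were 0.319, 0.208, -0.0389, 0.17 and 0.313 for embryos 1, 2, 3, 4 and 6, with a median of -0.0463 between different embryos. Replicates within a group differed beyond sampling noise (chi-square per degree of freedom 4.68 to 19.4), so each counted as its own sample. CPM were TMM normalised, and log2 differences within embryos used a prior count of 2.

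Alternatives were DESeq2 1.42.0 (size factors, Wald test), limma-voom (limma 3.58.1), other filters, no block, thinning both teeth of a pair to one total, and leaving out embryos. The genes named were all members, every pathway gene called by edgeR, and fixed pathway genes called or not, with the 2 genes most like each called member. The members and lists were chosen with earlier results of these data known. Total counts limit precision most in embryo 1. Some results on single marker genes are not reported here.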

Additional observations from a re-analysis of the deposited data

Results flagged for a closer look

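In 7 of 74 groups of 5 teeth examined for the members and the named pathway genes, 1 tooth lay far from the other 4, where chance gives about 3.7 (1 in 20). Of these, 5 were teeth of embryo 6 and 2 were teeth of embryo 4. Lef1 was highest in the control tooth of embryo 6, at 152 CPM against 107 to 119 CPM in the other control teeth. Without embryo 6, its log2 fold change was -0.53 with an edgeR adjusted p of 0.0115. Axin2 was highest in the control tooth of embryo 4, at 92.6 CPM against 66.3 to 72.1 CPM, and without embryo 4 it was -0.23 with an adjusted p of 0.145 and no longer called.

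Among other pathway genes, Notum stood apart in the IGF1 tooth of embryo 6 (6.28 CPM against 1.31 to 2.64 CPM), and without that embryo its log2 fold change was -1.80 with an edgeR adjusted p of 0.00351. Sostdc1 was highest in the control tooth of embryo 6 (273 CPM against 173 to 201 CPM; -0.57 and 0.0266 without it). Dkk3 was highest in the control tooth of embryo 4 (133 CPM against 82.2 to 95.9 CPM), with -0.38 and an adjusted p of 0.0319 without it. Sfrp4 was lowest in the control tooth of embryo 6 (11.5 CPM against 29.2 to 34 CPM), and its call was lost without that embryo (-0.58, edgeR adjusted p = 0.0671). Kremen1 was highest in the IGF1 tooth of embryo 6 (113 CPM against 100 to 104 CPM) and was not called with or without it (-0.20, adjusted p = 0.271). Without embryo 4, the log2 fold change of Kremen1 was -0.05 (edgeR adjusted p = 0.803).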

How the results depend on the processing

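Of the 130 values of the members under the alternatives, 117 kept their direction and side of the threshold, 9 lost the call (all of Axin2) and 4 reversed in sign. The number of members called was 1 in place of 2 with DESeq2's Wald test, without the filter on low counts, without the replicate block, without embryos 2 and 3, and without each embryo in turn (1 in every case). The remaining gene was Lef1. The number of genes called was 887 without the replicate block, in place of 1666, and 986 to 1602 with an embryo left out, lowest without embryo 4 (986) and embryo 6 (994), while other pathway genes called were 7 without the block, in place of 17, and 8 to 15 with an embryo left out, lowest without embryo 4 (8) and embryo 1 (11). Neighbours called were 7 within 250 kb in place of 16, among fewer genes. The reversed log2 fold changes belonged to genes that were not called. With an embryo left out, Wnt7b ranged from -0.02 (without embryo 3) to 0.15, Lrp4 from -0.05 (without embryo 2, and -0.03 without embryo 6) to 0.09, Porcn from -0.39 to 0.01 (without embryo 1) and Lrp5 from -0.07 (without embryo 2) to 0.12. Without embryos 2 and 3, Lrp4 was -0.07, Ctnnb1 -0.01 and Lrp5 -0.04. Of 351 values of the named pathway genes, 292 kept direction and side, 54 lost the call, 1 gained it (Nkd1 without embryo 2, adjusted p 0.0499) and 4 reversed. Why calls were lost or gained, or signs reversed, was not tested. Prickle2, Notum, Myc, Tle1, Daam2 and Dkk3 were called under all 13 alternatives. No setting moved the median of all genes beyond -0.01. Counts were lowest in embryo 1, whose values are the least precise.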

Other observations

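Some genes of the wider pathway that were not called are given here, chosen after their values were seen. Dkk4, a secreted Wnt inhibitor known from the enamel knot, had 1.72, 1.75, 1.42, 3.97 and 1.67 CPM in the control teeth of embryos 1, 2, 3, 4 and 6. In the IGF1 teeth it had 0, 0.119, 0, 0.141 and 1.86 CPM, so that it was nearly unread in 4 teeth and at the control level in embryo 6. The log2 fold change was -2.48 ± 0.74 with an edgeR adjusted p of 0.0535. The adjusted p was 0.0195 with limma-voom and 0.0032 with edgeR without embryo 6, the embryo whose IGF1 tooth was the higher. No other setting called Dkk4.

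Wnt16 averaged 7.9 CPM in the control and 4 CPM in the IGF1 teeth (log2 -0.93 ± 0.30, edgeR adjusted p = 0.0727). It was lower in 4 of 5 embryos, not in embryo 6, and was called only without that embryo (edgeR adjusted p = 0.0484). Fgf20, a target of Wnt signalling in the enamel knot, was lower in all 5 embryos at 2.39 and 1.23 CPM on average (log2 -1.14 ± 0.44, edgeR adjusted p = 0.12). The inhibitor Wif1 was also lower in all 5 embryos at 51.8 and 40.8 CPM (log2 -0.33 ± 0.10, edgeR adjusted p = 0.0569). Kremen2, a receptor of Dkk proteins, was higher in all 5 embryos at 6.33 and 8.59 CPM (log2 0.45 ± 0.18, edgeR adjusted p = 0.133).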
